A study of Homo sapiens with 30 samples.

Results

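MATK, also called CHK or CTK, and CSK are the kinases that hold the SRC family of tyrosine kinases in their inactive state. The genes described are MATK, CSK and the family members SRC, FYN, YES1 and LYN. These 6 genes were taken by symbol from the 18132 gene entries of the RNA-seq table and the 20582 entries of the PRO-seq table, and all 6 were found in both. MATK was put on this list because its values fell in the engineered cells in both assays, so its values in those comparisons are given as a description with no test. The other 5 genes were listed for their place in the same pathway.

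SRC family kinases relay signals from receptors and from sites of adhesion to the matrix. A phosphate on a tyrosine in their C-terminal tail folds the protein into an inactive form. CSK, present in most cells, adds that phosphate, and MATK, best known from blood cells and brain, can add it too and can also hold the kinases inactive by binding them. Phosphatases such as the product of PTPRA remove it.

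All samples were G401 cells, a human malignant rhabdoid tumour line, in culture. In the DTMYC line a lentivirus supplies MYC fused at its N terminus to an HA tag and the FKBP12 F36V degron, and the cell's own MYC gene was removed with CRISPR-Cas9. The compound dTAG47 marks that fusion protein for degradation. The parental cells carry neither change. RNA-seq covered 4 groups of 3 libraries after 24 h, which were DTMYC cells in 500 nM dTAG47, DTMYC cells in DMSO, parental cells in 500 nM dTAG47 and parental cells in DMSO. The other assays used DTMYC cells only. PRO-seq, which maps engaged RNA polymerase, had 2 libraries in 500 nM dTAG47 and 2 in DMSO after 4 h, ATAC-seq, which maps open chromatin, had 3 and 3 after 24 h, and MYC ChIP-seq had 3 and 2 after 4 h. MYC is given as the ChIP-seq antibody in the labels and HA, the tag on the fusion, in the peak lists' own names. The labels do not say that libraries of a group came from separate cultures, so p-values measure the spread between these libraries.

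Markers of blood and brain cells, in which MATK is best known, were low throughout. All 9 haematopoietic markers were under 1 CPM in every group. Their summed level was 0.311 to 0.639 CPM in DTMYC dTAG47 libraries and 0.143 to 0.243 CPM in DTMYC DMSO libraries, with 0.834 to 0.976 CPM in parental dTAG47 libraries and 0.910 to 0.987 CPM in parental DMSO libraries. Neuronal markers summed to between 6.02 and 7.79 CPM over the 12 libraries, and ELAVL4 was at 0 in all of them. SMARCB1, the gene whose loss defines rhabdoid tumours, had gene body counts of 0 and 0 in dTAG47 PRO-seq libraries and of 0 and 2 in DMSO PRO-seq libraries. MYC mRNA was at 1410 ± 64.7 CPM in DTMYC dTAG47 libraries and 1366 ± 46.2 CPM in DTMYC DMSO libraries (SD, n = 3 each), which differed by 0.05 on the log2 scale (adjusted p 0.801, edgeR's quasi-likelihood test). These reads include the transgene, and the compound acts on the protein, so mRNA does not check its loss. MAX, the DNA-binding partner of MYC, averaged 42.0 ± 1.27 CPM in DTMYC dTAG47 and 51.6 ± 1.20 CPM in DTMYC DMSO libraries (SD, n = 3 each). It fell by 0.30 on the log2 scale with an adjusted p of 0.0216 in edgeR, and of 0.0647 to 0.112 without any 1 of those 6 libraries. Parental DMSO library 3 stood apart, with a mean correlation of 0.9825 with its own group, against at least 0.9882 in each of the other 11 libraries.

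The sequences under the MYC peaks near these genes are shown first, because the peak at MATK holds repeated copies of CACGTG, the palindromic E-box that MYC binds together with its partner MAX. The MATK gene lies on the minus strand of chromosome 19, and its main transcript runs from 3786379 to 3777971 (GRCh37). In MYC ChIP-seq of DMSO library 1 a peak spanned chr19:3785593-3786091, which is 288 to 786 bases inside the gene from that start. This stretch is in the first intron of the main transcript, and part of it is annotated as exon of shorter MATK transcripts. It covers an annotated start of a protein-coding MATK transcript. The 3 copies of CACGTG in the peak follow with 12 bases on either side, read 5′ to 3′ on the MATK strand with the motif in capitals.

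MATK site 1: tacccgcgcgtcCACGTGgagggctgtgcg
MATK site 2: cacacctgtttcCACGTGgacgtggtcctt
MATK site 3: tgcgtgtgagtaCACGTGggactggaggat

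The motifs start 474, 683 and 776 bases inside the gene. The peak also held 2 copies of CACGCG or its reverse complement CGCGTG, a weaker E-box form. A second MYC peak of DMSO library 1 with 3 copies of CACGTG lay at chr20:36034874-36035215, starting 421 bases past the annotated end of SRC and 22321 bases from the nearest protein-coding start, which is one of SRC. Its sites are given on the SRC strand for comparison.

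SRC site 1: tgcagctgggttCACGTGgatgtgggtggg
SRC site 2: cccggcgggaccCACGTGtgcccgggggcg
SRC site 3: ggggcgcagggcCACGTGcgagcgcaaccg

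Among the 3864 peaks of that library on the numbered chromosomes and X, 34.5% held at least 1 CACGTG in the 500 bases around the midpoint, and 33 peaks, or 0.854%, held at least 3. The motif reads the same on both strands, so each copy was counted once. A match is a string of letters and does not show where MYC was bound.

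RefSeq promoters, the 250 bases before a start, were matched for 4 of the 6 genes, and none of their windows held CACGTG. Of 35116 RefSeq promoters of that length, 6.34% held CACGTG and 9.72% held CACGCG or CGCGTG. A promoter of MATK and that of YES1 are printed, the genes with a MYC peak at a start (RefSeq, GRCh38.p14, minus strand, chr19:3786382-3786631 and chr18:812243-812492). Of the 3 MATK windows in RefSeq, this one held 1 copy of CGCGTG, in capitals, and the others held none.

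MATK promoter: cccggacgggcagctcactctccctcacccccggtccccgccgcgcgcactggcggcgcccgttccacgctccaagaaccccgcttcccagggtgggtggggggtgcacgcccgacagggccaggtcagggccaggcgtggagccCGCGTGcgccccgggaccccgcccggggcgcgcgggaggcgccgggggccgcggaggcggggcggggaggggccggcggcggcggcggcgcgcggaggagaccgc
YES1 promoter: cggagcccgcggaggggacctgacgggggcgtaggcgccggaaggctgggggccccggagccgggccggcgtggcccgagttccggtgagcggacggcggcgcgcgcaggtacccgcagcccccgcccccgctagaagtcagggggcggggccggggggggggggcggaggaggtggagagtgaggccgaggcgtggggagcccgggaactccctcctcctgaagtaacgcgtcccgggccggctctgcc

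The YES1 stretch held neither motif. G and C made up 83.2% of the MATK stretch and 79.2% of the YES1 stretch.

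MATK mRNA was lower in DTMYC cells after dTAG47 than in DMSO. It measured 33.1, 34.1 and 31.6 CPM in DTMYC dTAG47 libraries, against 76.1, 65.8 and 79.5 CPM in DTMYC DMSO libraries. All dTAG47 libraries lay below all DMSO libraries, as in 20.0% of genes tested, a share given only as background. The means were 33.0 ± 1.28 CPM in dTAG47 and 73.8 ± 7.15 CPM in DMSO (SD, n = 3 each). The log2 change was −1.16 ± 0.11 (SE), with a 95% interval of −1.39 to −0.93, or 0.447 of the DMSO level. In order of log2 change MATK was number 73 from the lowest of 13401 genes tested. Of those genes, 4.44% were called lower (595 genes, adjusted p under 0.05), a share given only as background, since MATK was chosen on this contrast. In bulk RNA, less MATK RNA per cell and fewer cells making it cannot be told apart.

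In parental cells, which have no degradable MYC, MATK measured 26.9, 28.0 and 27.2 CPM in dTAG47 libraries and 36.9, 32.7 and 27.9 CPM in DMSO libraries. The groups overlapped, since parental DMSO library 3 lay within the dTAG47 range. The log2 change was −0.25 ± 0.11 with an adjusted p of 0.292 in edgeR's quasi-likelihood test. Without parental DMSO library 3 it was −0.36 with an adjusted p of 0.00457 in the same test, so whether MATK passed depended on that library. The change in DTMYC cells differed from the change in parental cells by −0.92 ± 0.15 on the log2 scale, given without a test.

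The lines also differed before any compound. MATK averaged 73.8 ± 7.15 CPM in DTMYC DMSO libraries and 32.5 ± 4.48 CPM in parental DMSO libraries (SD, n = 3 each), with no overlap, as in 34.9% of genes with DTMYC higher. The log2 difference was 1.18 ± 0.11, or 2.27-fold, and ranged from 1.07 to 1.28 when single libraries were left out. It is given without a test, because the DTMYC DMSO libraries are also those that MATK was chosen on. This comparison called 73.3% of genes tested in either direction and 36.0% as higher in DTMYC cells. MYC mRNA differed in the same comparison, with 1366 ± 46.2 CPM in DTMYC and 235 ± 28.2 CPM in parental DMSO libraries (SD, n = 3 each). Its part in the MATK difference was not tested. The levels of MATK in DTMYC dTAG47 libraries, 31.6 to 34.1 CPM, lay inside the range of parental DMSO libraries, 27.9 to 36.9 CPM. They lay above those of parental dTAG47 libraries, 26.9 to 28.0 CPM, and the lines were not tested against each other in dTAG47.

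**Figure D1:**
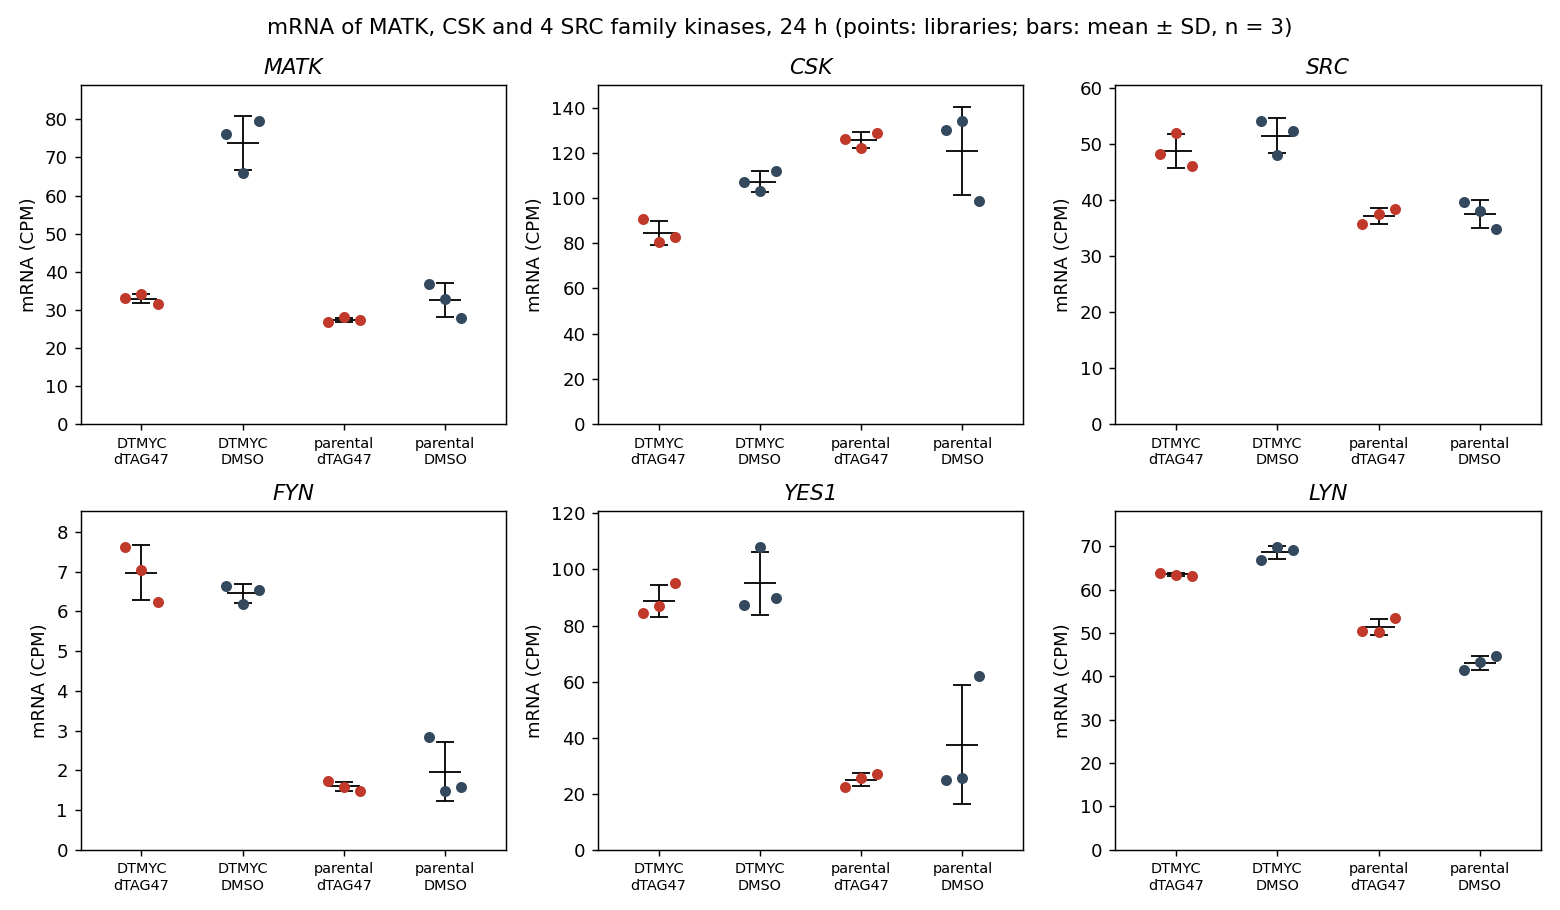
Level of mRNA in CPM (y axis, linear, from 0) for each of the 6 genes in DTMYC dTAG47, DTMYC DMSO, parental dTAG47 and parental DMSO libraries at 24 h. Points are libraries and bars are mean ± SD (n = 3). For MATK the 3 DTMYC DMSO libraries, at 65.8 to 79.5 CPM, stand above the other 9, and for YES1 parental DMSO library 3, at 61.9 CPM, stands above the other parental libraries.

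Engaged polymerase on MATK was already lower after 4 h. Gene body PRO-seq measured 18.3 and 18.8 CPM in dTAG47 libraries, against 38.8 and 45.0 CPM in DMSO libraries. The groups did not overlap, as in 19.3% of genes with dTAG47 lower, a share given only as background. The means were 18.5 ± 0.343 CPM in dTAG47 and 41.9 ± 4.33 CPM in DMSO (SD, n = 2 each). The log2 change was −1.18 ± 0.13, with a 95% interval of −1.49 to −0.87, or 0.442 of the DMSO level, and it lay between −1.28 and −1.07 with single libraries left out. MATK was number 16 from the lowest of 13397 genes in order of log2 change. None of those genes passed an adjusted p of 0.05 in edgeR's quasi-likelihood test (0%), 1298 had an unadjusted p under 0.05, and DESeq2 called 67. A fit with a replicate block called many more, as given in the last section. The PRO-seq table places MATK from 3777967 to 3801810 on chromosome 19, so its start lies 15431 bases upstream of the main start. Promoter-proximal counts taken at that outer start were 1 and 2 in dTAG47 libraries and 1 and 2 in DMSO libraries. They were too low to test and say nothing of polymerase at the main start. The gene body window of 22844 bases spans the main start. Its counts can thus include polymerase near that start and upstream of it, which was not separated from polymerase further into the gene.

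Peaks of MYC and of open chromatin near the MATK starts were called in some libraries and not in others. None of the 3 dTAG47 libraries of MYC ChIP-seq had a peak within 1000 bases of a MATK start, and of the DMSO libraries, library 1 had the peak described above and library 3 had none. Its score of 65 was passed by 46.6% of the peaks of that list. The lists differ in length, with 408, 7 and 193 peaks in dTAG47 libraries and 4010 and 1519 in DMSO libraries. ATAC-seq peaks were called near the MATK start in dTAG47 libraries 1 and 3 and in DMSO libraries 2 and 3, with scores of 24 and 25 in dTAG47 and of 23 and 25 in DMSO. At least 86.8% of the peaks in each of those lists scored higher. The DMSO peaks shared no base with each other, and both dTAG47 peaks and that of DMSO library 2 overlapped the stretch of the MYC peak. A peak was thus present in 2 of 3 libraries of either treatment.

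**Figure D2:**
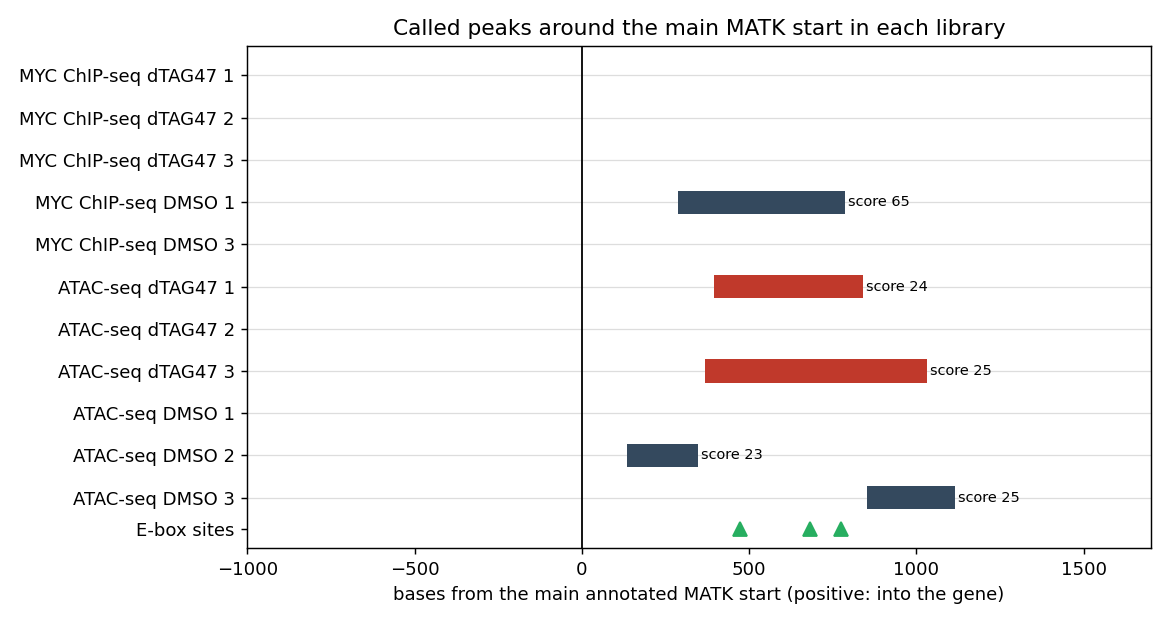
Peaks called around the main MATK start in each library, by distance from that start in bases (x axis, positive into the gene), with MYC ChIP-seq rows above ATAC-seq rows and dTAG47 rows above DMSO rows. Bars span the peaks, numbers are the authors' scores and triangles mark the 3 copies of CACGTG, which lie inside the single MYC peak, that of DMSO library 1.

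CSK, the general inhibitor of the family, had lower mRNA in every DTMYC dTAG47 library than in any DTMYC DMSO library, but it did not pass the test. Its levels were 90.7, 80.7 and 82.6 CPM in dTAG47, against 107, 103 and 112 CPM in DMSO. The log2 change was −0.34 ± 0.11 with an adjusted p of 0.0629 in edgeR's quasi-likelihood test over all 12 libraries. The call depends on libraries outside the comparison. The adjusted p was 9.47e-05 without parental DMSO library 3, 0.0493 without parental DMSO library 2, and 0.000147 with only the 6 DTMYC libraries. Groups that did not overlap, with dTAG47 lower, were found in 20.0% of genes tested. In parental cells CSK measured 126, 122 and 129 CPM in dTAG47 and 130, 134 and 98.7 CPM in DMSO, where library 3 was the low one. The log2 change there was 0.06 with an adjusted p of 0.805, and −0.08 without that library. The responses of DTMYC and parental cells differed by −0.40 ± 0.15, with an adjusted p of 0.173 and of 0.0261 without parental DMSO library 3. Gene body PRO-seq of CSK was 41.9 and 40.4 CPM in dTAG47 and 44.2 and 45.6 CPM in DMSO, a log2 change of −0.12 ± 0.10 (adjusted p 0.734, edgeR). Its 95% interval was −0.37 to 0.12.

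The 4 SRC family kinases did not pass the test in DTMYC cells, where 8.71% of all genes tested did. SRC itself measured 48.3, 52.0 and 46.1 CPM in dTAG47 and 54.1, 48.0 and 52.4 CPM in DMSO, a log2 change of −0.08 (95% interval −0.26 to 0.10, adjusted p 0.638). FYN, a close relative of SRC, was the scarcest at 7.62, 7.05 and 6.24 CPM in dTAG47 and 6.64, 6.19 and 6.54 CPM in DMSO, a log2 change of 0.11 (95% interval −0.28 to 0.50, adjusted p 0.772). In both genes the 2 groups of libraries overlapped.

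YES1, a family member expressed in many tissues, measured 84.4, 86.9 and 95.3 CPM in dTAG47 and 87.4, 108 and 89.9 CPM in DMSO. Its log2 change was −0.10 (95% interval −0.68 to 0.49, adjusted p 0.879). LYN, best known from B cells and myeloid cells, measured 63.9, 63.4 and 63.2 CPM in dTAG47 and 66.9, 69.8 and 69.1 CPM in DMSO. Here every dTAG47 library was below every DMSO library, as in 20.0% of genes tested. The log2 change of −0.11 (95% interval −0.26 to 0.03) had an adjusted p of 0.352 in edgeR. The adjusted p was 0.0384 with only the 6 DTMYC libraries.

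Gene bodies of the 4 kinases gave log2 changes of 0.05 for SRC, 0.15 for FYN, 0.08 for YES1 and 0.05 for LYN, with adjusted p of 0.955, 0.795, 0.837 and 0.889 in the same test. Engaged polymerase on SRC measured 55.2 and 70.7 CPM in dTAG47 and 53.4 and 67.9 CPM in DMSO, and that on FYN 16.5 and 18.4 CPM in dTAG47 and 15 and 16.5 CPM in DMSO. YES1 had 86.6 and 89.8 CPM in dTAG47 and 80.5 and 86.9 CPM in DMSO. LYN had 155 and 157 CPM in dTAG47 and 147 and 154 CPM in DMSO. Both LYN dTAG47 libraries were above both DMSO libraries, as in 20.6% of genes. For SRC the direction turned to −0.11 without DMSO library 1 and to −0.14 without dTAG47 library 2. Each SRC dTAG47 library was nevertheless slightly above the DMSO library of the same number.

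**Figure D3:**
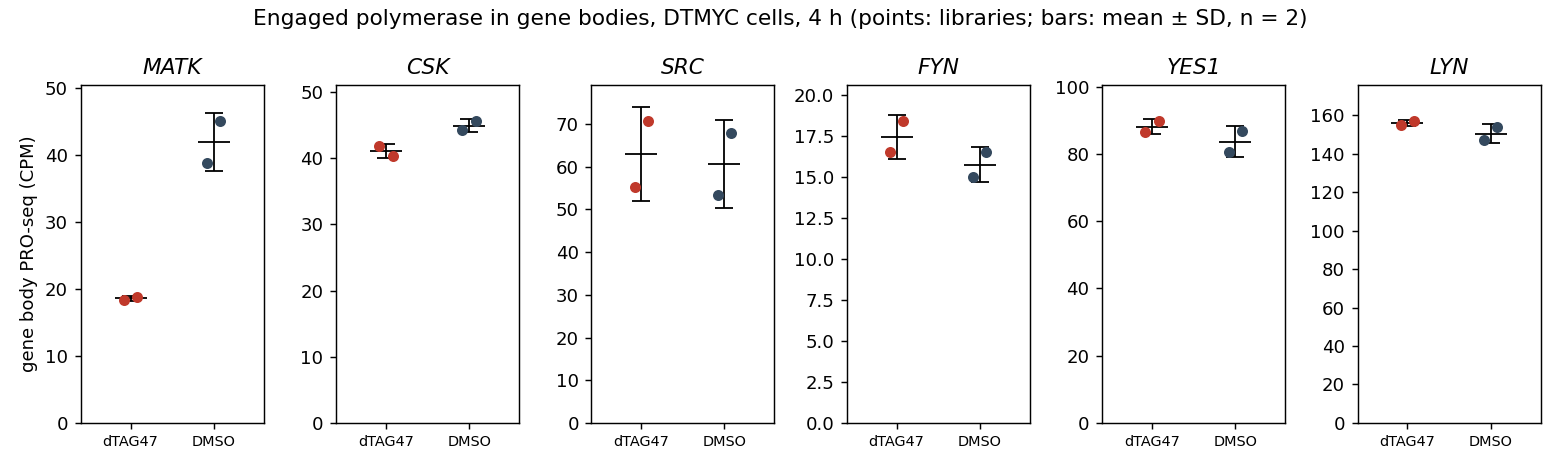
Engaged polymerase in the gene body in CPM (y axes, linear, from 0) for each of the 6 genes in dTAG47 and DMSO libraries of DTMYC cells at 4 h. Points are libraries and bars are mean ± SD (n = 2). The MATK dTAG47 libraries, at 18.3 and 18.8 CPM, lie below the DMSO libraries at 38.8 and 45.0 CPM.

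Polymerase near the start could be tested for CSK, YES1 and LYN only. Promoter-proximal counts of CSK were 6 and 10 in dTAG47 and 6 and 11 in DMSO. Those of YES1 were 33 and 21 in dTAG47 and 23 and 29 in DMSO, and those of LYN 26 and 41 in dTAG47 and 25 and 33 in DMSO. The log2 changes of 0.03, 0.16 and 0.34 for CSK, YES1 and LYN each had an adjusted p of 0.999 in edgeR's quasi-likelihood test, and their 95% intervals all spanned more than a log2 unit. No gene was called in that comparison (0% of 10217 tested), while 385 had an unadjusted p under 0.05. SRC had counts of 1 and 1 in dTAG47 and 0 and 0 in DMSO, and its start in the PRO-seq table lies 1455 bases upstream of the main start. Its gene body window thus also spans the main start. FYN had 1 and 1 in dTAG47 and 3 and 2 in DMSO. Neither was tested.

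In parental cells treated with dTAG47, none of the 6 genes passed the test, and 0.127% of all genes did. SRC measured 35.7, 37.5 and 38.5 CPM in dTAG47 and 39.7, 38.1 and 34.8 CPM in DMSO, a log2 change of −0.01 (adjusted p 0.961). FYN measured 1.72, 1.58 and 1.48 CPM in dTAG47 and 2.83, 1.49 and 1.59 CPM in DMSO. Its log2 change of −0.28 (adjusted p 0.525) rested on DMSO library 1 and was 0.07 without it.

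YES1 measured 22.5, 25.5 and 26.9 CPM in parental dTAG47 and 25, 25.6 and 61.9 CPM in parental DMSO libraries, where library 3 alone was high. Its log2 change of −0.59 ± 0.27 (adjusted p 0.328) rested on that library and was −0.04 without it. LYN was the one gene of the 6 whose parental groups did not overlap with dTAG47 higher, at 50.5, 50.2 and 53.5 CPM in dTAG47 and 41.5, 43.2 and 44.7 CPM in DMSO. This was found in 8.73% of genes. Its log2 change of 0.25 ± 0.07 had an adjusted p of 0.13 in edgeR and of 0.0256 in DESeq2, and in edgeR of 0.00643 without parental DMSO library 3. The response of LYN in DTMYC cells differed from that in parental cells by −0.36 ± 0.10, with an adjusted p of 0.078 in edgeR, 0.0168 in DESeq2 and, in edgeR without that library, 0.0026. The same difference was −0.07 for SRC, 0.39 for FYN and 0.49 for YES1, with adjusted p of 0.792, 0.463 and 0.503 in edgeR, where 1.19% of genes were called. For YES1 it was −0.09 without parental DMSO library 3.

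**Figure D4:**
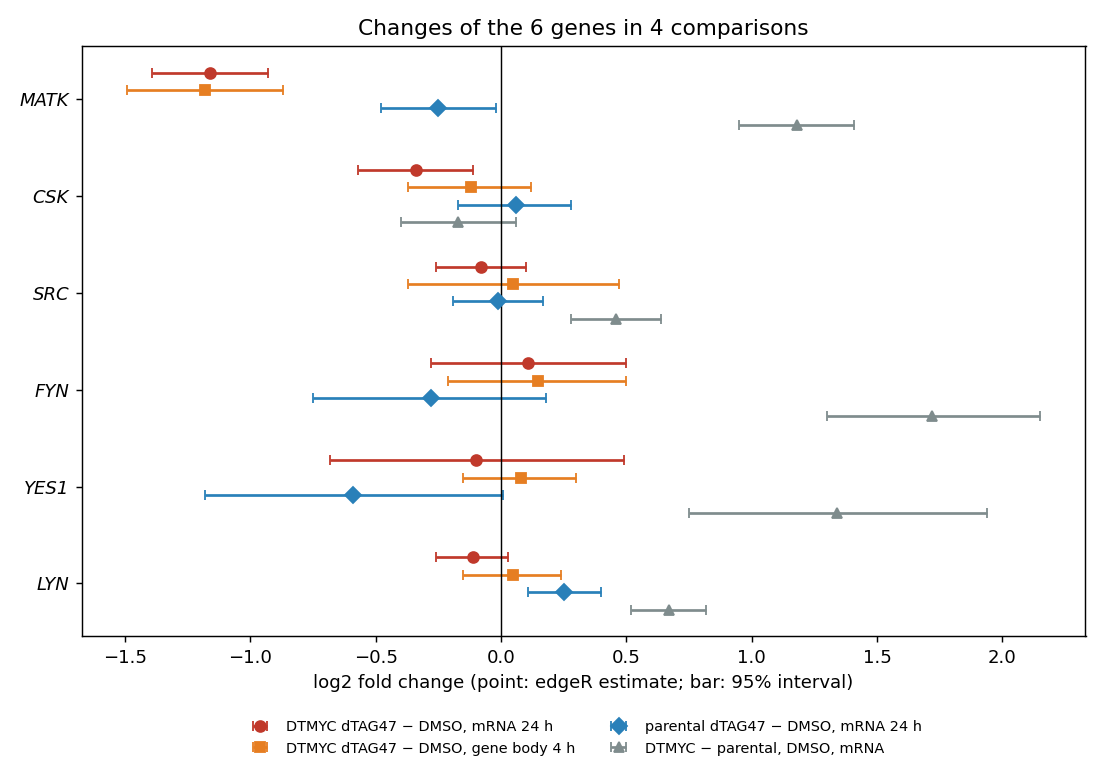
Log2 fold changes of the 6 genes (x axis) from edgeR in 4 comparisons, which are DTMYC dTAG47 minus DTMYC DMSO in mRNA, the same in gene body PRO-seq, parental dTAG47 minus parental DMSO in mRNA, and DTMYC minus parental cells in DMSO. Points are estimates and bars 95% intervals. MATK was chosen on the first 2 comparisons, where its estimates are −1.16 and −1.18, and SRC, FYN, YES1 and LYN lie right of 0 between the lines.

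All 4 SRC family kinases were higher in DTMYC than in parental cells in DMSO, as were 36.0% of genes tested. SRC averaged 51.5 ± 3.15 CPM in DTMYC and 37.5 ± 2.51 CPM in parental DMSO libraries, a log2 difference of 0.46 ± 0.08 with an adjusted p of 0.00033. FYN averaged 6.46 ± 0.239 CPM in DTMYC and 1.97 ± 0.746 CPM in parental libraries, a difference of 1.72 ± 0.20, or 3.30-fold, with an adjusted p of 6.44e-06. LYN averaged 68.6 ± 1.53 CPM in DTMYC and 43.1 ± 1.57 CPM in parental libraries, a difference of 0.67 ± 0.07 with an adjusted p of 2.29e-06 (SD, n = 3 in each group, edgeR's quasi-likelihood test). YES1 averaged 95 ± 11 CPM in DTMYC and 37.5 ± 21.1 CPM in parental libraries. Its difference of 1.34 ± 0.27 had an adjusted p of 0.000753 in edgeR, and the difference was 1.89 without parental DMSO library 3. In every DTMYC DMSO library each of these 4 genes was above every parental DMSO library, as in 34.9% of genes tested. CSK alone leaned the other way, at 107 ± 4.52 CPM in DTMYC and 121 ± 19.3 CPM in parental libraries. That log2 difference of −0.17 had an adjusted p of 0.156 in edgeR, and without parental DMSO library 3 it was −0.31 with an adjusted p of 0.000189. YES1 shares 154 and 159 exon bases with a pair of long noncoding RNA genes on the opposite strand, and the sources used here do not say whether counting used strand. No other gene of the 6 shares exon bases with an annotated gene.

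Levels of different genes were compared as CPM per kilobase of annotated length. In DTMYC DMSO libraries the order was CSK at 23.4 ± 1.01, LYN at 20.2 ± 0.416, YES1 at 18.6 ± 2.18, MATK at 17.8 ± 1.72, SRC at 7.89 ± 0.485 and FYN at 0.871 ± 0.0321 CPM per kb (SD, n = 3). The ranges of LYN and YES1 overlapped, as did those of YES1 and MATK. In DTMYC dTAG47 libraries LYN at 18.7 ± 0.115, CSK at 18.5 ± 1.15 and YES1 at 17.4 ± 1.15 CPM per kb overlapped at the top. MATK at 7.96 ± 0.307 and SRC at 7.47 ± 0.454 CPM per kb overlapped below them, and FYN was at 0.941 ± 0.0939 CPM per kb. The range of MATK thus overlapped that of SRC in dTAG47 and that of YES1 in DMSO.

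In parental cells CSK stood alone at the top, with 27.5 ± 0.854 CPM per kb in dTAG47 and 26.4 ± 4.21 in DMSO, and LYN was next with 15.1 ± 0.493 in dTAG47 and 12.7 ± 0.500 in DMSO. MATK had 6.61 ± 0.131 CPM per kb in parental dTAG47 and 7.85 ± 1.09 in parental DMSO libraries. SRC had 5.70 ± 0.217 in dTAG47 and 5.75 ± 0.382 in DMSO, and YES1 had 4.89 ± 0.450 in dTAG47 and 7.34 ± 4.13 in DMSO. FYN was last, at 0.215 ± 0.0160 in dTAG47 and 0.265 ± 0.100 in DMSO. In parental DMSO libraries the ranges of MATK and YES1 overlapped, and so did those of YES1 and SRC.

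Gene body PRO-seq gave another order for the same genes in DTMYC cells. In dTAG47 libraries CSK led with 2.04 ± 0.0495 CPM per kb of gene body, followed by LYN at 1.19 ± 0.0141, SRC at 1.05 ± 0.181, YES1 at 0.982 ± 0.0247 and MATK at 0.811 ± 0.0156. In DMSO libraries CSK had 2.22 ± 0.0495 CPM per kb and MATK was next with 1.84 ± 0.191, above LYN at 1.14 ± 0.0354, SRC at 1.02 ± 0.174 and YES1 at 0.932 ± 0.0502 (SD, n = 2). FYN was last in both, at 0.0824 ± 0.00643 in dTAG47 and 0.0744 ± 0.00509 in DMSO. The place of MATK in these orders depends on the 22844 bases that the PRO-seq table gives its gene body, which begins far upstream of the main start. Its density over a shorter stretch was not computed.

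Peaks at the starts of the other 5 genes were set beside the share of all protein-coding genes with one. Counting all 6, no gene had a MYC peak within 1000 bases of a start in any dTAG47 library, where 1.95% of 19807 protein-coding genes had one in at least 1 library. In DMSO, MATK and YES1 had a peak in 1 library each, where 17.8% of genes had one in at least 1 library. None of the 6 had one in both DMSO libraries, where 5.64% of genes did. The YES1 peak, chr18:811990-812859 in DMSO library 3, spanned the start, had a score of 35 and held no CACGTG. A further MYC peak of DMSO library 1 lay inside LYN, 8544 bases from its nearest protein-coding start, with a score of 26 and no CACGTG.

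Called peaks of ATAC-seq were present at starts of CSK, FYN, YES1 and LYN in all 3 dTAG47 and all 3 DMSO libraries, as for 58.5% of genes in dTAG47 and 57.3% in DMSO. All 6 genes had one in at least 1 library of each treatment, as 68.0% of genes did in dTAG47 and 68.2% in DMSO. The FYN start had scores of 546, 206 and 637 in dTAG47 and 382, 437 and 178 in DMSO. At the YES1 start the scores were 366, 225 and 467 in dTAG47 and 418, 389 and 195 in DMSO. The main start of SRC had peaks in dTAG47 libraries 1 and 3, with scores of 36 and 79, and in DMSO libraries 1 and 2, with scores of 54 and 43. For SRC as for MATK, a peak was called in 2 of 3 libraries of each treatment, though the 2 MATK peaks in DMSO shared no base. Scores depend on the depth of each library, which is unknown, and were not compared between treatments.

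The wider pathway was described from lists of genes. These lists were chosen with earlier results of these data known, so their counts and medians are a description. Of 20 SRC family substrates and partners, 18 could be tested, and 4 rose in DTMYC cells after dTAG47 and none fell, where 4.27% of all genes tested rose. Their median log2 change was 0.15, against 0.03 over all genes tested. VCL, the adhesion protein vinculin, measured 1425, 1425 and 1361 CPM in dTAG47 and 1090, 1102 and 1097 CPM in DMSO, a log2 change of 0.36 ± 0.06 (adjusted p 0.00438 in edgeR). SHC1, an adaptor that links receptors to RAS, measured 459, 454 and 430 CPM in dTAG47 and 341, 325 and 335 CPM in DMSO, a change of 0.42 ± 0.07 (adjusted p 0.00381 in edgeR). In both genes all dTAG47 libraries were above all DMSO libraries, as in 25.2% of genes tested.

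CTNND1, the cadherin partner p120 catenin, measured 302, 302 and 299 CPM in dTAG47 and 244, 236 and 241 CPM in DMSO, a change of 0.32 ± 0.06 (adjusted p 0.00691 in edgeR). NEDD9, a scaffold of adhesion sites, measured 204, 200 and 200 CPM in dTAG47 and 152, 154 and 158 CPM in DMSO, a change of 0.38 ± 0.09 (adjusted p 0.0193 in edgeR). The NEDD9 call was lost without any 1 of the 6 DTMYC libraries, with adjusted p of 0.061 to 0.0832. The list's count of higher genes was 7 without parental DMSO library 3, where 12.7% of all genes were called higher, and 8 with the 6 DTMYC libraries alone, where 16.5% were. In parental cells the log2 changes were 0.24 for VCL, 0.04 for SHC1, 0.17 for CTNND1 and 0.16 for NEDD9. Their adjusted p were 0.109, 0.787, 0.216 and 0.38 in edgeR, and no gene of the list was called. For VCL and CTNND1 all parental dTAG47 libraries were above all parental DMSO libraries, as in 8.73% of genes tested. Without parental DMSO library 3, 8 genes of the list were called higher and 1 lower in parental cells, where 9.17% of all genes were called higher and 10.9% lower. The responses of the lines differed by 0.12 for VCL, 0.38 for SHC1, 0.15 for CTNND1 and 0.22 for NEDD9, with adjusted p of 0.444, 0.0701, 0.333 and 0.347 in edgeR. Gene bodies of VCL, SHC1 and NEDD9 had log2 changes of 0.32, 0.18 and 0.20 with adjusted p of 0.58, 0.66 and 0.5 in edgeR without a replicate block. The kidney epithelial markers, led by keratins, moved alongside, with summed levels of 5803 to 6551 CPM in DTMYC dTAG47 and 5100 to 5719 CPM in DTMYC DMSO libraries, and their part in these changes was not tested. In parental cells the sums lay the other way, at 4597 to 4918 CPM in dTAG47 and 5226 to 6322 CPM in DMSO libraries. KRT8 and KRT18 made up nearly all of the sum. Of the 8 markers 5 were tested, and edgeR called none in DTMYC cells and 2 as higher in the difference between the responses.

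The lists of CSK anchors, phosphatases and receptors held no gene past the threshold in edgeR in DTMYC cells, while DESeq2 called 1 anchor and 1 phosphatase higher, as it did 5.17% of all genes. Of 7 anchors and adaptors of CSK, 6 were tested, with a median log2 change of 0.29 and values between −0.19 for LIME1 and 0.40 for PAG1, the membrane anchor that recruits CSK. Without parental DMSO library 3, 3 of these 6 were called higher, as were 1 phosphatase and 2 receptors, and 1 phosphatase was called lower. At that setting 12.7% of all genes were called higher and 16.6% lower. Of 11 phosphatases that act on the family, 7 were tested, with a median of 0.13 and values between −0.16 for PTPN2 and 0.21 for PTPRA. Of 5 receptors reported to bind MATK, 3 were tested, with a median of 0.24. PTPN6 and CXCR4 were not analysed here in RNA-seq.

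**Figure D5:**
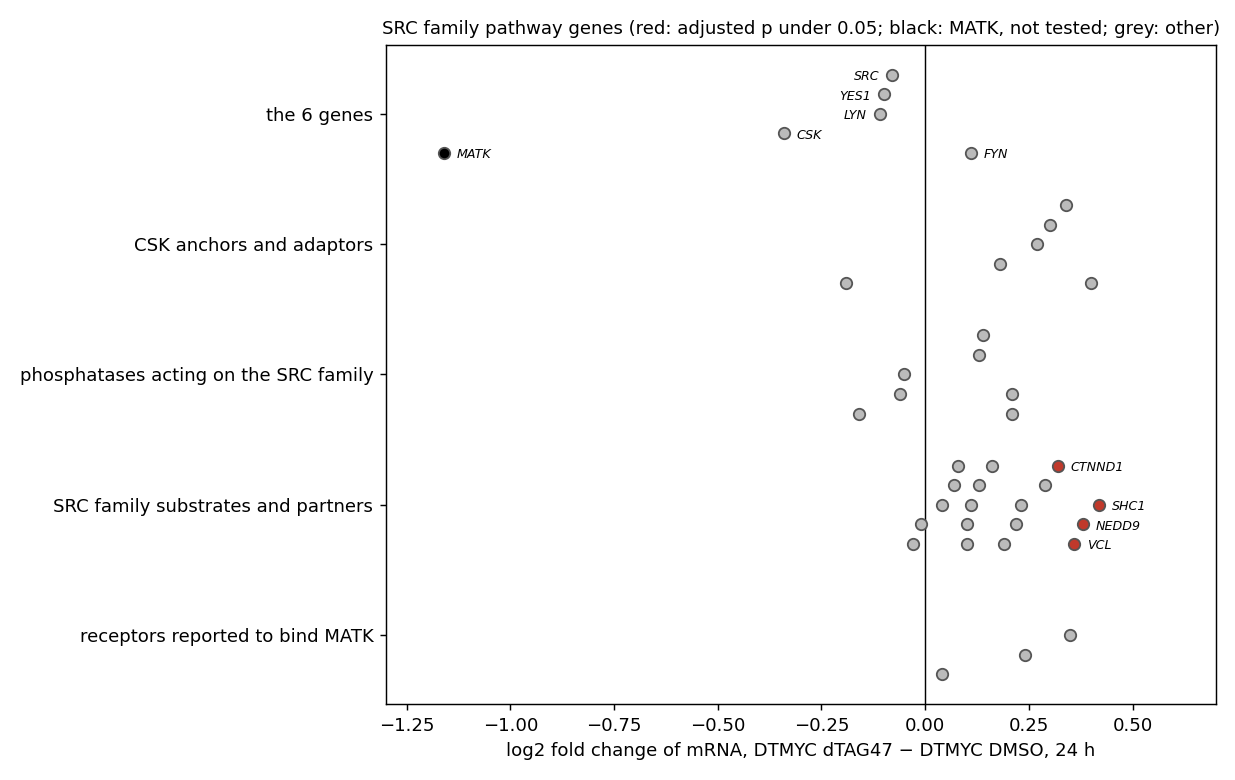
Log2 fold change of mRNA, DTMYC dTAG47 minus DTMYC DMSO at 24 h (x axis), for the 6 genes and the tested genes of 4 lists (rows, with points offset vertically for legibility). Red points passed an adjusted p of 0.05 in edgeR, grey points did not, and MATK, in black, was not tested. The 4 red genes, VCL, SHC1, CTNND1 and NEDD9, lie between 0.32 and 0.42 and MATK lies at −1.16.

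The genes whose mRNA pattern was closest to that of MATK over the 12 RNA-seq libraries were MMP17, B4GALNT3, PLD6, IMPDH1 and FAM86B1. Closeness was the root mean square difference of log2 CPM after centring each gene on its own mean, and it ran from 0.157 for MMP17 to 0.208 for FAM86B1. Since the likeness used all 12 libraries, their mRNA values are a description. MMP17, a membrane-bound metalloproteinase, averaged 2.78 ± 0.390 CPM in DTMYC dTAG47 and 6.6 ± 0.405 CPM in DTMYC DMSO libraries (SD, n = 3 each). IMPDH1, an enzyme of guanine nucleotide synthesis, averaged 124 ± 4.81 CPM in dTAG47 and 194 ± 17.2 CPM in DMSO. PLD6, a mitochondrial phospholipase, averaged 20.8 ± 0.987 CPM in dTAG47 and 34.7 ± 1.38 CPM in DMSO. Log2 changes of mRNA in DTMYC cells were −1.24 for MMP17, −0.73 for B4GALNT3, −0.73 for PLD6, −0.65 for IMPDH1 and −0.71 for FAM86B1. FAM86B1 has near-identical copies, so its counts are uncertain. In gene body PRO-seq, which the likeness did not use, the changes were −0.26 for MMP17, −0.16 for B4GALNT3, −0.92 for PLD6, −0.58 for IMPDH1 and −0.53 for FAM86B1. None passed the test there, with adjusted p of 0.711, 0.902, 0.389, 0.398 and 0.592 in edgeR.

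Of the 7 protein-coding genes with a start within 100 kb of a MATK start, 1 was called in DTMYC cells after dTAG47, and it rose, where 8.71% of all genes tested were called and 4.27% rose. TJP3, a tight junction scaffold whose start is 55542 bases away, measured 3.45, 3.33 and 2.94 CPM in DTMYC dTAG47 and 1.73, 1.91 and 1.06 CPM in DTMYC DMSO libraries. Its log2 change was 1.06 ± 0.19 with an adjusted p of 0.00706 in edgeR. The nearer genes RAX2, MRPL54 and APBA3, with starts 11690, 21213 and 22226 bases away, had log2 changes of −0.54, −0.20 and −0.06, with adjusted p of 0.538, 0.37 and 0.819. ZFR2, ATCAY and PIP5K1C, farther away, had −0.12, 0.21 and 0.08, with adjusted p of 0.721, 0.149 and 0.75. Without parental DMSO library 3, MRPL54 at −0.23 and ATCAY at 0.18 were called as well, with adjusted p of 0.0296 and 0.0249 in edgeR. The gene body of TJP3 gave 1.11 on the log2 scale (adjusted p 0.43), and the other neighbours that could be tested were between −0.04 for ZFR2 and 0.27 for ATCAY.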

How the data were processed

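The members, the gene lists and the rules for naming genes were chosen with earlier results of these data known. Groups were taken from the labels. The submitters' processing notes name the build hg19 and, without roles, cutadapt, STAR, Bowtie2, featureCounts, MACS2, DESeq2 and DiffBind. The sources used here do not give versions or settings.

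The authors deposited raw read counts per gene for RNA-seq, with 18132 entries, and promoter-proximal and gene body read counts per gene for PRO-seq, with 20582 entries. The gene body density, a signal per base that the authors computed before they deposited the table, was used only to recover the length of the gene body. The deposited MYC ChIP-seq and ATAC-seq lists hold, for each library alone, peaks with a score on a scale of 10 for each unit of −log10 q, the form MACS2 writes. RNA-seq libraries held 27854207 to 54633745 counts, PRO-seq gene bodies 18209879 to 23256313 and promoter-proximal regions 1216928 to 1632084. How deeply the peak libraries were sequenced is unknown.

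Tests on counts used edgeR 4.0.16 (R 4.3.3). Genes were kept by filterByExpr with a minimum count of 10 and scaled by TMM, and the quasi-likelihood F-test was two-sided with Benjamini-Hochberg adjustment over all genes tested, and calls had an adjusted p under 0.05. The RNA-seq fit took all 12 libraries and no replicate block. PRO-seq had a fit for gene bodies and another for promoter-proximal regions, both with the gene body scaling. Levels are CPM, computed from the deposited counts with effective library sizes. edgeR's common coefficient of biological variation came to 0.121 (RNA-seq), 0.126 (gene bodies) and 0.218 (promoter-proximal). The tests were checked on simulated counts.

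A gene had a peak where at least 1 base of the peak lay within 1000 bases of a start of a protein-coding transcript in GENCODE 44 lifted to GRCh37, the sequence of hg19. Sequence and annotation at peaks are GRCh37, and promoter sequences are those of RefSeq on GRCh38.p14, with no coordinates moved between builds. Genes named beyond the members were the list genes past the threshold with a mean of at least 1 CPM, the 5 genes closest to MATK over the RNA-seq libraries, and the protein-coding genes with a start within 100 kb of a MATK start. Alternatives were DESeq2 1.42.0, its size factors, no filter, each library left out, a replicate block, fits of the compared groups alone, other windows around starts and stricter scores. The IgG ChIP-seq libraries were not analysed here. The list of other SRC family kinases is not reported here.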

Additional observations from a re-analysis of the deposited data

Results flagged for a closer look

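TJP3, a neighbour of MATK on chromosome 19, responded differently to dTAG47 in the 2 lines. It averaged 3.24 ± 0.264 CPM in DTMYC dTAG47 and 1.57 ± 0.448 CPM in DTMYC DMSO libraries, and 11.4 ± 1.33 CPM in parental dTAG47 and 13.8 ± 1.33 CPM in parental DMSO libraries (SD, n = 3 each). The responses differed by 1.33 ± 0.24 on the log2 scale, with an adjusted p of 0.0351 for the interaction in edgeR. Every DTMYC dTAG47 library was above every DTMYC DMSO library, as in 25.2% of genes tested. Every parental dTAG47 library was below every parental DMSO library, as in 6.63% of genes tested. The adjusted p rose to between 0.0692 and 0.119 without DTMYC DMSO library 1 or 3, any DTMYC dTAG47 library or any parental dTAG47 library, while the difference stayed between 1.10 and 1.43.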

How the results depend on the processing

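No alternative in the comparison of the lines in DMSO took a call from SRC, FYN, YES1 or LYN. Counts of genes called moved more. With only the 6 libraries compared, 4593 genes were called in DTMYC cells and 0 in parental cells. The parental count was 7 with DESeq2's size factors, 299 in DESeq2 and 5 with a replicate block. The count for the difference in response was 63 with DESeq2's size factors, 583 in DESeq2, 102 without the filter and 79 with a replicate block. For gene bodies it was 67 in DESeq2, 2 without the filter and 4360 with a replicate block, and for promoter-proximal regions 282 with that block. At a MYC score of at least 50, 1 of the 6 genes had a peak in a DMSO library.

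No label says that same-numbered libraries were paired. Correlations of same-numbered libraries' deviations from their group means were 0.085, −0.011 and −0.048 in DTMYC cells and 0.324, 0.048 and 0.367 in parental cells. The 2 PRO-seq pairs gave a single value, 0.639, because with 2 libraries a group the deviations of 1 library mirror those of the other. It cannot be ranked against the RNA-seq values. With the block, gene bodies of NEDD9, VCL, SHC1, TJP3, ATCAY and MAX were called, with adjusted p of 0.000538, 1.03e-05, 0.00526, 6.1e-05, 2.25e-08 and 8.38e-10 in edgeR. Of the SRC family substrates and partners 9 gene bodies were then called higher and 0 lower, where 16.6% of all genes were called higher.

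With single libraries left out, the count ranged from 329 to 3951 in DTMYC cells, 0 to 2718 in parental cells, 9128 to 11008 between the lines, 5 to 2417 for the difference in response, 5 to 44 for gene bodies and 0 to 2 for promoter-proximal regions. The highest DTMYC, parental and response counts were those without parental DMSO library 3, and all 1167 genes called in DTMYC cells were among those 3951. Of the 6 genes, 1 to 2 had a MYC peak in at least 1 DMSO library and 0 to 1 in every one, and 4 to 6 had an ATAC-seq peak in every dTAG47 library and 4 to 5 in every DMSO library.

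Some small changes turned direction when a library was left out, and the cause was not tested. In parental cells the log2 change ran from −0.08 to 0.14 for CSK, −0.07 to 0.03 for SRC, −0.45 to 0.07 for FYN, −0.34 to 0.17 for MMP17, −0.28 to 0.01 for PLD6 and −0.15 to 0.03 for FAM86B1. The difference in response of YES1 ran from −0.09 to 0.71. In gene bodies SRC ran from −0.14 to 0.23, MRPL54 from −0.35 to 1.02, APBA3 from −0.05 to 0.19 and ZFR2 from −0.16 to 0.10. In promoter-proximal regions CSK ran from −0.50 to 0.63, YES1 from −0.10 to 0.44 and LYN from −0.16 to 0.70. The low promoter-proximal counts and the 2 PRO-seq libraries a group limit what could be detected there.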
